A study of Mus musculus with 6 samples.

Results

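p53, the transcription factor encoded by Trp53 in the mouse, and 9 genes known as its direct targets were followed in RNA of pancreatic islets. These 10 genes were taken by symbol from the 55401 gene identifiers of the count table, and all 10 were found and passed the filter on low counts that left 14212 genes for testing. The 6 libraries came from male C57BL/6 mice aged about 20 weeks. The 3 control libraries had the genotype Pdgfra fl/fl Pdx1-Cre-, with both copies of Pdgfra floxed and no Cre (Pdgfra encodes a receptor tyrosine kinase for platelet-derived growth factors). The 3 KO libraries had the genotype Pdgfra fl/fl Pdx1-Cre+, so that Cre was expressed under the promoter of Pdx1, which is active in the pancreatic lineage from early development and in adult beta cells. The labels give no treatment beyond genotype, and no Cre-carrying mice without floxed Pdgfra were among the samples, so Cre and the loss of Pdgfra cannot be told apart. In the count table all 3 KO columns and 0 control columns carry a suffix, 2b, that no label explains, so whatever it marks cannot be told apart from genotype in any value below. The title of the series names death of beta cells, a process in which p53 is a classical regulator, and the comparison shows how the p53 genes differed between these genotypes.

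p53 is made continuously and kept scarce by Mdm2, a ubiquitin ligase that marks it for degradation. DNA damage and other stresses stabilise the protein, which then binds DNA as a tetramer and switches on genes that halt the cell cycle, repair DNA, adjust metabolism or start apoptosis. Since the control acts mainly on the protein, the summed transcripts of its targets are often read as a sign of its activity, although many of these targets also respond to other transcription factors.

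The element that p53 binds is made of 2 decamers, each of 10 bases. Of the 10 genes, 8 had a promoter sequence in RefSeq (build GRCm38.p6), with 10 start sites between them. The p53 decamer, searched on both strands in the window from 250 bases before to 50 bases after each start, was present in 6 of these 10 promoters and in 8.36% of 32851 promoters of the same length. The joined element of 20 bases without a spacer was matched at all 20 positions in 3 of all promoters (0.00913%), none of them a member's, and at 19 or more in 29 of all promoters (0.0883%), and 2 of the 29 belonged to Cdkn1a and Ccng1. Their 250 bases before the start are shown 5′ to 3′ with the 20 bases of the match in capitals, since these are the members whose promoter window carried a near-complete element. The promoter of Plk3, the member with the smallest p between genotypes, is shown beside them, with the core TGACG of the cyclic AMP response element in capitals.
Cdkn1a, upstream start, chr17:29090729-29090978, plus strand: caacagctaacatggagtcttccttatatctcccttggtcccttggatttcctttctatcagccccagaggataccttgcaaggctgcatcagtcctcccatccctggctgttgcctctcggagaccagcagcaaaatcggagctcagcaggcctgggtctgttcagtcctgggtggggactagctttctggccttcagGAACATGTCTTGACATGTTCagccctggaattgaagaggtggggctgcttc
Ccng1, chr11:40755287-40755536, minus strand: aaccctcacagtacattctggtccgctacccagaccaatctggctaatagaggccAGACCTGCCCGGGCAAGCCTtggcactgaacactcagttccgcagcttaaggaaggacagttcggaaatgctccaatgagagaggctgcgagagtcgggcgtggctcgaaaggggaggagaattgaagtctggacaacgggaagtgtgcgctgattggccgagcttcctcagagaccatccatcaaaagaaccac
Plk3, chr4:117133964-117134213, minus strand: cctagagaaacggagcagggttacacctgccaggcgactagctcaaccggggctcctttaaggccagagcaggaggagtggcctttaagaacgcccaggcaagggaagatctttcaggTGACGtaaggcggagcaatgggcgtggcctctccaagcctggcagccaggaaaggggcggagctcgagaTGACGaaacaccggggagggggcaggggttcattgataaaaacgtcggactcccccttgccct

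In Cdkn1a the match lay 51 to 32 bases before the upstream start site, which is 2841 bases before the downstream start site when counted from the first base of the match. The first decamer matched at 10 positions and the second at 9. In Ccng1 the match lay 195 to 176 bases before the start site, with 9 and 10 matching positions. The promoters of Gadd45a, of Trp53 itself and of the downstream start of Sesn1 reached 17 of 20 positions, which 6.29% of all promoters reached or passed, and those of Mdm2, Plk2, Plk3 and the downstream start of Cdkn1a reached 15, which 76.6% of all promoters reached or passed. The upstream start of Sesn1 reached 14, as 98.5% of all promoters did at least. Joined elements with a spacer or outside the window were not searched for, so a low match does not show that a gene lacks a p53 element. TGACG, searched on both strands, was present in 4 of the 10 promoters and in 20.8% of all. The 4 were those of Plk3, Plk2, Mdm2 and the downstream start of Sesn1. Of these genes only Plk3 had values without overlap between genotypes. TGACG is contained in TGACGTCA, the full cyclic AMP response element, which was present in the promoter of Plk2 and in 1.79% of all. TTGCATCA, a composite element bound by C/EBP and ATF factors, was in 0 of the 10 promoters and in 0.895% of all. The count table sums the exons of a gene, so which start site was used was not measured.

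Library totals ran from 15026094 to 25299689 counts, and the 10 genes had from 57 to 2436 counts per library. For Pdgfra itself the table holds 42, 88 and 116 counts in controls 1, 2 and 3, beside 93, 25 and 125 in KO 1, 2 and 3 (edgeR adjusted p = 0.869), and since all exons are summed this gave no check of the genotype labels. The labels call the cells beta cells and the tissue islet and name no sorting. The 6 beta-cell markers, Ins1 and Ins2 among them, took 7.85% to 14.8% of counts in controls and 10.5% to 12.8% in KO, and the 10 acinar markers, all digestive enzymes or secreted acinar proteins and none at 0, took 16.6% to 29.9% in controls and 12.6% to 22.6% in KO. The ribosomal RNA locus CT010467.1 took 3.32% to 4.52% in controls and 5.36%, 12.6% and 18.5% in KO 1, 2 and 3. Fibroblast markers, Col1a1 and Dcn among them, took 0.0152% to 0.0297% in controls and 0.0172%, 0.00379% and 0.0230% in KO 1, 2 and 3. KO 2, with the fewest Pdgfra counts, thus also had the smallest fibroblast share. In such bulk RNA, fewer cells of a type and less RNA per cell cannot be told apart.

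Of the 10 genes, 0 passed the test over all genes (edgeR quasi-likelihood test, adjusted p under 0.05), where the background was 0.0704% of all genes tested. Limma-voom also called 0 of the 10, where 6 of all 14212 genes were called. DESeq2 called 1, Plk3, where 0.338% of all genes tested were called. At an unadjusted p under 0.05 there were 4 of 10, against 7.37% of all genes tested, and the values of the 3 KO libraries did not overlap those of the 3 controls in the same 4, against 13.9% of all genes tested. The 3 with lower values in KO were Plk3, Cdkn1a and Ccng1, where 2.54% of all genes were lower at that p and 5.94% were lower without overlap. The 1 with higher values was Trp53inp1, where 4.83% of all genes were higher at that p and 7.94% were higher without overlap. Both counts rest on the same values, and the 10 genes were chosen with earlier results of these data known. The counts are thus a description and not a test of the 10 genes as a set. Over the 10 genes 7 values were negative and 3 positive, with a median log2 fold change of -0.11, and over all tested genes the median was -0.01. Trp53 and Mdm2 had nearly the same level in both genotypes.

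**Figure D1:**
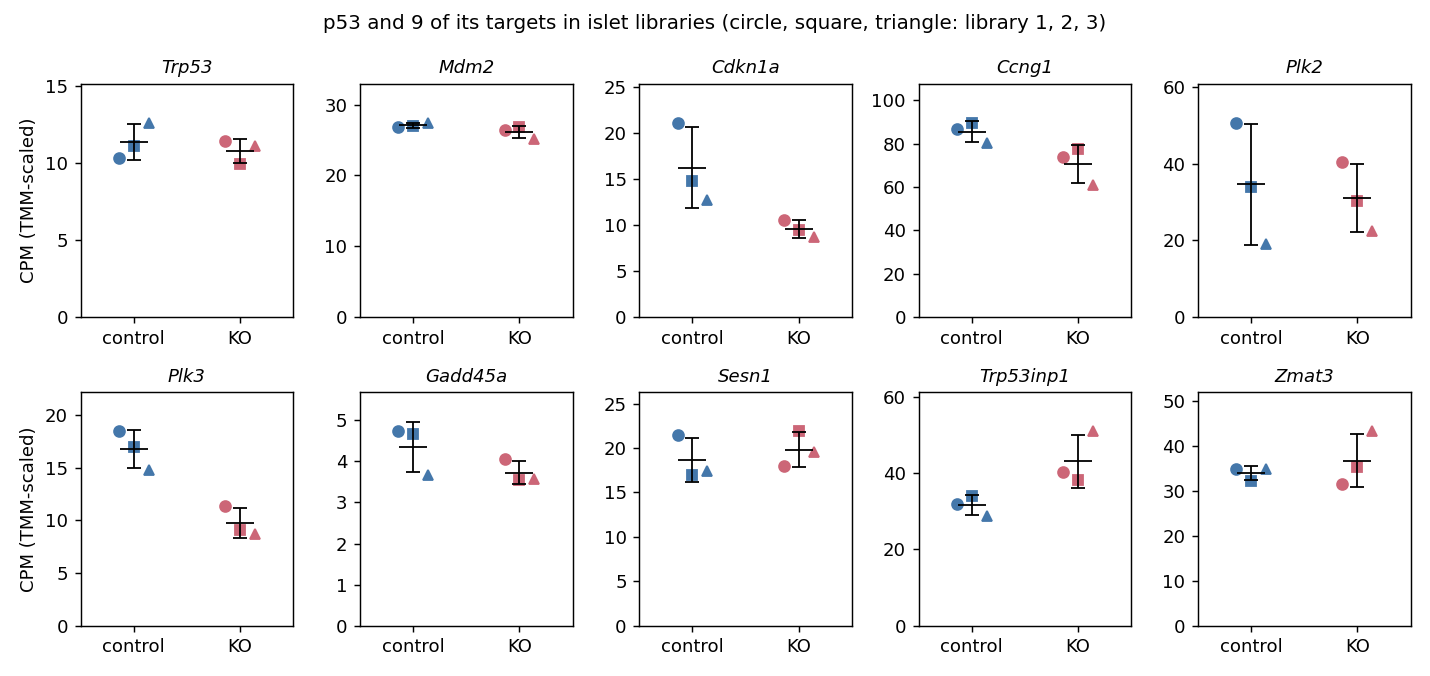
Level of Trp53 and 9 of its targets in each library, in CPM scaled by TMM factors, with control in blue and KO in red, the black line at the mean and the bar at 1 SD (n = 3 each). The KO libraries lie below all controls for Cdkn1a, Ccng1 and Plk3 and above them for Trp53inp1, while Mdm2 stays between 25.1 and 27.5 CPM throughout.

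Levels are first given in CPM (counts scaled to library size) per kilobase of summed exon length, which allows genes to be compared. In controls Ccng1 was highest at 24.4 ± 1.39 CPM per kilobase (SD, n = 3), and its libraries were separate from those of the next gene, Plk2, at 7.70 ± 3.52. Then came Plk3 at 6.62 ± 0.72 and Mdm2 at 5.33 ± 0.0695. Trp53inp1 at 4.87 ± 0.398, Sesn1 at 4.68 ± 0.628 and Cdkn1a at 4.55 ± 1.23 followed, each overlapping its neighbour. Zmat3 at 2.97 ± 0.134, Trp53 at 2.81 ± 0.289 and Gadd45a at 2.47 ± 0.341 were lowest, again with overlapping libraries. Of the 9 pairs of neighbours in this order, 5 overlapped and 4 were separate. In KO the ends of the order were the same, with Ccng1 at 20.1 ± 2.50 and Gadd45a at 2.11 ± 0.157, while Trp53inp1 stood in the third place at 6.65 ± 1.06, Plk3 in the sixth at 3.84 ± 0.559 and Cdkn1a in the eighth at 2.69 ± 0.263. The lengths sum all annotated exons of a gene, so genes with long and rarely used exons are understated on this scale. All levels below are CPM scaled by TMM factors, not divided by length.

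Trp53 (ENSMUSG00000059552.13, chromosome 11, 69580359 to 69591873, GRCm38) stood at 10.4, 11.1 and 12.7 CPM in controls 1, 2 and 3 and at 11.4, 9.92 and 11.1 CPM in KO 1, 2 and 3. The groups overlapped, with the highest value in control 3 and the lowest in KO 2. The log2 fold change was -0.08 (95% interval -0.35 to 0.20, SE 0.12, edgeR adjusted p = 0.896). The paralogs of Trp53 were nearly undetected, Trp63 with 1 count in KO 1 and 0 in the other libraries and Trp73 with 0 to 2 counts per library.

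Mdm2 (ENSMUSG00000020184.15, chromosome 10, 117688875 to 117710758), both a target of p53 and the ligase that degrades it, was the steadiest of the 10 genes. It stood at 26.8, 27.0 and 27.5 CPM in controls 1, 2 and 3 and at 26.5, 26.8 and 25.1 in KO 1, 2 and 3. The groups overlapped, and the highest library was 1.09 times the lowest. The log2 fold change was -0.05 (95% interval -0.24 to 0.13, SE 0.08, edgeR adjusted p = 0.897).

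Cdkn1a (ENSMUSG00000023067.14, chromosome 17, 29090976 to 29100727) encodes p21, the inhibitor of cyclin-dependent kinases through which p53 halts the cell cycle. It stood at 21.1, 14.7 and 12.7 CPM in controls 1, 2 and 3 and at 10.5, 9.42 and 8.68 in KO 1, 2 and 3. Every KO library was below every control, and control 1 stood well above the other controls. The group levels were 16.2 ± 4.39 and 9.54 ± 0.936 CPM (SD, n = 3 each), a log2 fold change of -0.74 (95% interval -1.16 to -0.33, SE 0.18) that did not pass the test (edgeR adjusted p = 0.427). Without control 1 the value was -0.52 (SE 0.14, edgeR adjusted p = 0.820). The related inhibitor Cdkn1b, which encodes p27, had a value of 0.10 (SE 0.10, edgeR adjusted p = 0.834).

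Plk3 (ENSMUSG00000028680.14, chromosome 4, 117128655 to 117133963) encodes a polo-like kinase of the stress response that can phosphorylate p53, and it had the smallest p of the 10 genes. It stood at 18.5, 17.0 and 14.8 CPM in controls 1, 2 and 3 and at 11.3, 9.11 and 8.71 in KO 1, 2 and 3. The lowest control was above the highest KO library. The group levels were 16.7 ± 1.82 and 9.72 ± 1.41 CPM (SD, n = 3 each), a log2 fold change of -0.77 (95% interval -1.08 to -0.46, SE 0.14), or 0.585 times the control level, and it ranked 30 of 14212 genes by p. It missed the threshold in the edgeR test (adjusted p = 0.132) and passed it with DESeq2 (-0.78, SE 0.18, adjusted p = 0.00560), where 0.338% of genes were called. Without the filter on low counts, Plk3, Cdkn1a and Trp53inp1 passed the edgeR test at adjusted p of 1.41e-05, 5.84e-05 and 0.0179, where 1.14% of genes were called. The SE of Plk2, the most variable of the 10 genes, was 0.12 in that fit and 0.32 in the main one. The p-values without the filter thus take little account of a gene's own spread among libraries. With a library left out the edgeR adjusted p of Plk3 ran from 0.145 to 0.667 and its log2 fold change from -0.91 to -0.69.

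Plk2 (ENSMUSG00000021701.8, chromosome 13, 110395046 to 110400844), a polo-like kinase of the same subfamily, varied most between libraries, and its groups overlapped. It stood at 50.8, 33.9 and 19.2 CPM in controls 1, 2 and 3 and at 40.3, 30.2 and 22.5 in KO 1, 2 and 3. Both the highest and the lowest library were controls, a ratio of 2.65. The log2 fold change was -0.14 (95% interval -0.85 to 0.57, SE 0.32, edgeR adjusted p = 0.933), and it turned to 0.24 (SE 0.28, edgeR adjusted p = 0.963) without control 1. It also turned without KO 3, to 0.06 (SE 0.33, edgeR adjusted p = 0.989).

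Within each genotype Cdkn1a, Plk3 and Plk2 had their libraries in the order of the acinar marker share, which was 29.9%, 22.7% and 16.6% in controls 1, 2 and 3 and 22.6%, 19.1% and 12.6% in KO 1, 2 and 3. Of all tested genes, 5.34% had this order in both groups. The share fell with library number in both genotypes, so its order cannot be told apart from that of the numbers. With the mean log2 level of the acinar markers as a covariate, Cdkn1a had a value of -0.59 (SE 0.12, edgeR adjusted p = 0.138), Plk3 of -0.70 (SE 0.12, edgeR adjusted p = 0.0461) and Plk2 of 0.21 (SE 0.12, edgeR adjusted p = 0.819), where 0.303% of genes were called. With the ribosomal RNA locus as a covariate, Cdkn1a had a value of -0.74 (SE 0.31) and Plk3 of -0.56 (SE 0.21), both at an edgeR adjusted p of 1.00, and 0 genes were called in all (214 at an unadjusted p under 0.05). The log2 level of this locus was 14.9 to 15.7 in controls and 15.7, 17.1 and 17.4 in KO 1, 2 and 3. It thus ran largely with genotype, and for any gene this fit cannot separate them well. Without the covariate the SE was 0.18 for Cdkn1a and 0.14 for Plk3.

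**Figure D2:**
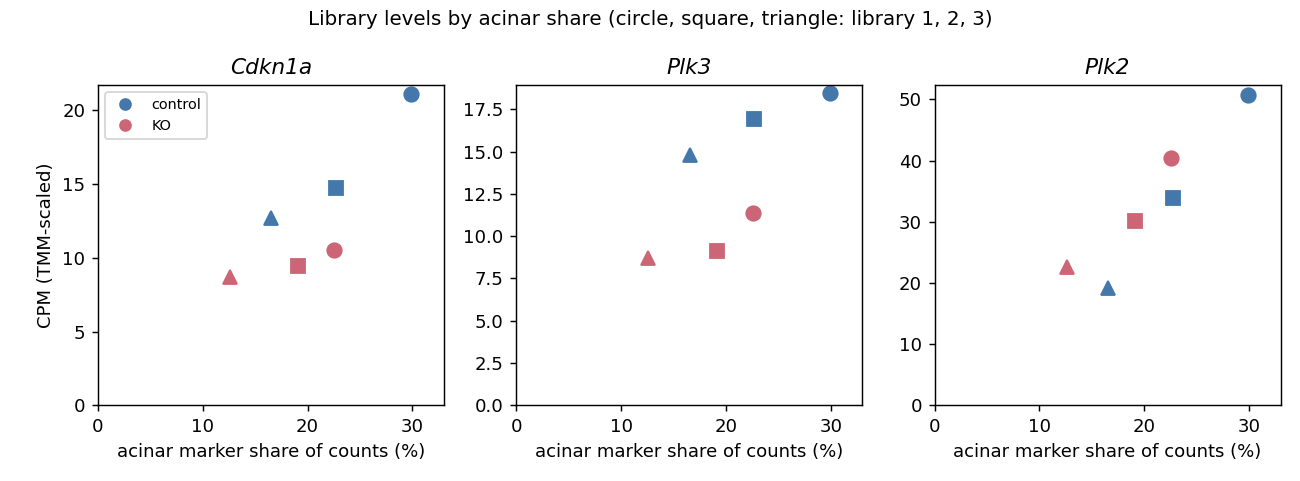
Level of Cdkn1a, Plk3 and Plk2 in CPM against the share of counts taken by the 10 acinar markers, 1 point per library, with control in blue and KO in red. Within each genotype the library with the larger share has the higher level for all 3 genes, from 8.68 to 21.1 CPM for Cdkn1a, 8.71 to 18.5 for Plk3 and 19.2 to 50.8 for Plk2. The share also falls with library number in both genotypes.

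Ccng1 (ENSMUSG00000020326.7, chromosome 11, 40748552 to 40755311) encodes cyclin G1, a target of p53 that feeds back on Mdm2 through a phosphatase. It stood at 86.8, 89.8 and 80.3 CPM in controls 1, 2 and 3 and at 73.8, 77.4 and 60.7 in KO 1, 2 and 3. The groups did not overlap, and KO 3 was lowest. The log2 fold change was -0.28 (95% interval -0.53 to -0.03, SE 0.11, edgeR adjusted p = 0.664), and -0.18 (SE 0.09, edgeR adjusted p = 0.968) without KO 3, the library with the largest ribosomal RNA share at 18.5%. With the ribosomal RNA locus as a covariate the value was -0.16 (SE 0.19).

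Trp53inp1 (ENSMUSG00000028211.11, chromosome 4, 11156431 to 11174379) encodes a stress-induced protein that takes part in p53-dependent cell death and in autophagy. It stood at 31.9, 33.9 and 28.8 CPM in controls 1, 2 and 3 and at 40.2, 38.1 and 50.9 in KO 1, 2 and 3. Every KO library was above every control, with KO 3 the highest. The log2 fold change was 0.45 (95% interval 0.17 to 0.74, SE 0.13, edgeR adjusted p = 0.515), and 0.32 (SE 0.10, edgeR adjusted p = 0.813) without KO 3. With the ribosomal RNA locus as a covariate it was 0.31 (SE 0.20, edgeR adjusted p = 1.00). Trp53inp2, its paralog, had a value of -0.01 (SE 0.10, edgeR adjusted p = 0.989).

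Gadd45a (ENSMUSG00000036390.8, chromosome 6, 67035096 to 67037457), a small stress-inducible protein that binds the kinase MEKK4 and p21, was the least abundant of the 10 genes. It stood at 4.73, 4.66 and 3.66 CPM in controls 1, 2 and 3 and at 4.05, 3.56 and 3.58 in KO 1, 2 and 3. The groups overlapped through control 3. The log2 fold change was -0.21 (95% interval -0.61 to 0.20, SE 0.18, edgeR adjusted p = 0.814). Of its exon bases 337 (19.1%) are shared with E230016M11Rik on the other strand, which had 2 to 8 counts per library, and reads there cannot be told apart without the strand setting. Exons of Cdkn1a and Plk3 overlap genes on the other strand as well, by 273 bases (7.68%) with AC167363.2 and by 84 bases (3.32%) with Tctex1d4, and both of these had 0 or 1 count in each library.

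Sesn1 (ENSMUSG00000038332.13, chromosome 10, 41809935 to 41908424), which encodes a sestrin that restrains the growth kinase mTORC1, stood at 21.5, 17.0 and 17.4 CPM in controls 1, 2 and 3 and at 18.0, 21.9 and 19.6 in KO 1, 2 and 3. The groups overlapped (log2 fold change 0.09, 95% interval -0.18 to 0.37, SE 0.12, edgeR adjusted p = 0.871). Zmat3 (ENSMUSG00000027663.12, chromosome 3, 32334792 to 32366014), which encodes a zinc finger protein that binds RNA and acts on splicing, stood at 34.8, 32.2 and 34.8 CPM in controls 1, 2 and 3 and at 31.6, 35.4 and 43.3 in KO 1, 2 and 3. Its highest and lowest libraries were both KO (log2 fold change 0.12, 95% interval -0.15 to 0.39, SE 0.12, edgeR adjusted p = 0.838).

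**Figure D3:**
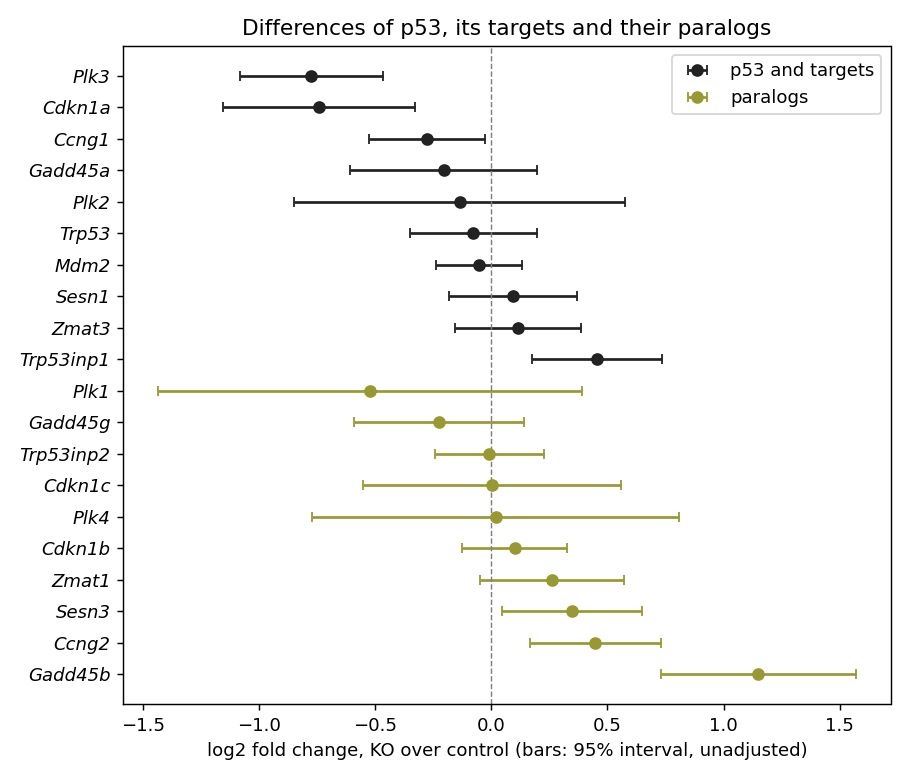
Log2 fold change of KO over control for the 10 genes (black) and their 10 tested paralogs (olive), with unadjusted 95% intervals. Intervals of Plk3, Cdkn1a, Ccng1 and Trp53inp1 leave out 0, as do those of the paralogs Gadd45b, Ccng2 and Sesn3, while none of these genes passed the edgeR threshold over all genes.

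Paralogs of the 10 genes, which share their protein family, gave another set of values. Of 14 listed, 10 were tested, and 0 passed by edgeR or limma-voom (adjusted p under 0.05), where edgeR called 0.0704% of all genes tested. DESeq2 called 1, Gadd45b, where 0.338% of all genes tested were called. At an unadjusted p under 0.05 there were 3, all higher in KO, against 4.83% of all genes tested in that direction, and these were Gadd45b, Ccng2 and Sesn3. Gadd45b, a stress-inducible relative of Gadd45a, stood at 4.49, 4.49 and 6.26 CPM in controls 1, 2 and 3 and at 9.33, 13.4 and 11.9 in KO 1, 2 and 3. Every KO library was above every control. Its log2 fold change was 1.15 (95% interval 0.73 to 1.57, SE 0.19, edgeR adjusted p = 0.100), and 1.15 with DESeq2 (SE 0.22, adjusted p = 1.73e-04). It also passed the edgeR test without the filter on low counts (adjusted p = 5.04e-09) and with the acinar covariate (adjusted p = 0.0409). The fit without the filter takes little account of a gene's own spread among libraries. Gadd45g, the other member of this family, had a value of -0.22 (SE 0.16, edgeR adjusted p = 0.787).

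Ccng2 encodes cyclin G2, which unlike cyclin G1 is not a classical p53 target. It stood at 8.10, 8.74 and 10.5 CPM in controls 1, 2 and 3 and at 12.5, 12.9 and 12.3 in KO 1, 2 and 3, without overlap (log2 fold change 0.45, 95% interval 0.16 to 0.73, SE 0.13, edgeR adjusted p = 0.515). Sesn3, the sestrin with the most counts, stood at 127, 161 and 152 CPM in controls and at 172, 171 and 217 in KO, also without overlap (log2 fold change 0.35, SE 0.13, edgeR adjusted p = 0.639), and without KO 3 the value was 0.22. The values of Ccng1 and Ccng2 thus had opposite signs, and so did those of Gadd45a and Gadd45b, and the difference within each pair was not tested.

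Cdkn1a and Plk3 had all 6 libraries in the same order, from control 1 down to KO 3. The root mean square distance between their centred log2 levels over the 6 libraries was 0.15. Among 7991 genes whose mean log2 CPM was 3 or more, the 5 nearest to Plk3 were Aldh18a1 (0.08), which makes a precursor of proline, and Nars (0.09), Yars (0.10), Aars (0.13) and Sars (0.14), which encode cytosolic aminoacyl-tRNA synthetases. The 5 nearest to Cdkn1a were Aldh18a1 (0.10), Ldha (0.10), which encodes a lactate dehydrogenase subunit, Nars (0.11), Shmt2 (0.14), a mitochondrial enzyme of serine and folate metabolism, and Mars (0.14), the methionyl-tRNA synthetase. All points share the same 6 libraries and their makeup. Since these 8 genes were picked for a pattern that is high in controls and low in KO, their differences between genotypes are a description and give no support. Aars stood at -0.80 on the log2 scale (SE 0.10). Aldh18a1, the nearest to both, stood at 120, 103 and 85.4 CPM in controls and at 65.1, 59.9 and 55.8 in KO, a difference of -0.77 on the log2 scale (SE 0.13).

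**Figure D4:**
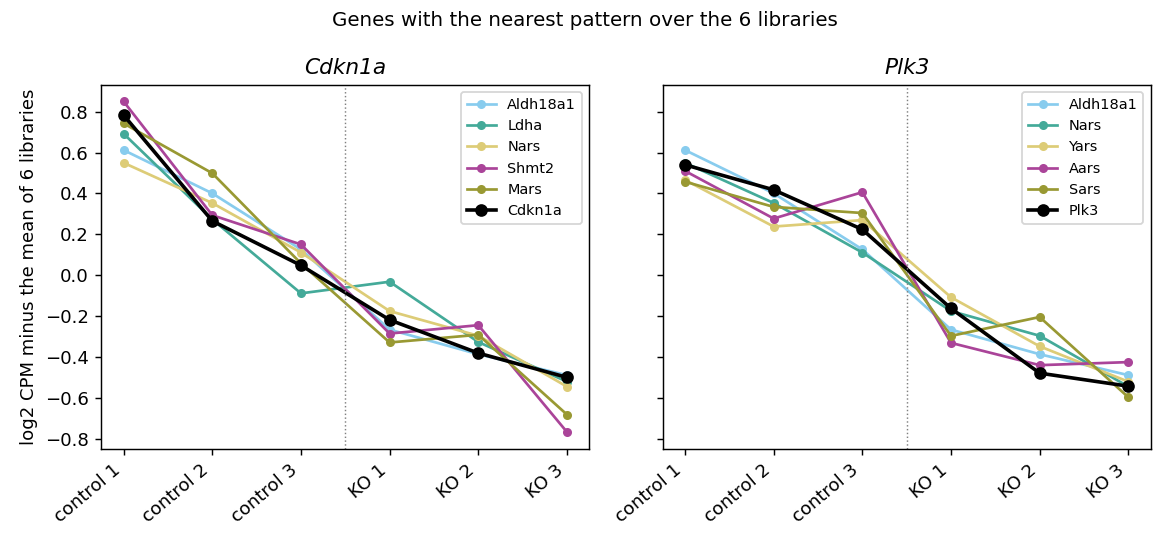
Log2 CPM minus the mean of the 6 libraries for Cdkn1a (left) and Plk3 (right) in black and for the 5 genes with the nearest pattern in colour, with a dotted line between control and KO libraries. Lines only join the values of 1 gene, and all genes shown are highest in a control and lowest in a KO library.

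Beyond the 10 genes, 44 other regulators and targets of p53 were listed by role. Of these 42 were tested, and 0 passed in either direction by edgeR, DESeq2 or limma-voom. Of all genes tested, edgeR called 0.0704% and DESeq2 0.338%, so 0 of 42 says little about these genes. Values were positive in 18 and negative in 24, with a median of -0.03 beside -0.01 for all genes. At an unadjusted p under 0.05 there were 2, against 7.37% of all genes tested, and the groups did not overlap in 5, against 13.9%. Named after their values were seen, these were Mdm4 and Ckap2, higher in KO, and Sesn2, Ephx1 and Fdxr, lower in KO.

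The 9 tested targets with roles in metabolism and redox control had 8 negative values and a median of -0.12. Of all 14212 genes tested, 7414 had negative values, and the median was -0.01. Sesn2, a sestrin induced by p53 and also by ATF4, stood at 26.7, 25.1 and 27.1 CPM in controls 1, 2 and 3 and at 23.4, 20.8 and 21.0 in KO 1, 2 and 3 (log2 fold change -0.27, SE 0.09, edgeR adjusted p = 0.591). Ephx1, a microsomal epoxide hydrolase, stood at 18.0, 18.8 and 17.1 CPM in controls and at 16.3, 14.3 and 15.3 in KO (log2 fold change -0.22, SE 0.10, edgeR adjusted p = 0.674). Both had an unadjusted p under 0.05. The members with the most counts per kilobase were Gpx1, a glutathione peroxidase (-0.02, SE 0.16), and Ddit4, an inhibitor of mTORC1 (-0.12, SE 0.12). Gdf15, a secreted stress cytokine, had 4 to 12 counts per library and was not tested.

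The 13 apoptosis targets, among them Bax, Bbc3, Pmaip1, Fas and Apaf1, had 5 positive and 8 negative values with a median of -0.09. The number of these targets without overlap between groups was 0, against 13.9% of all genes tested. Ei24 and Triap1, those with the most counts per kilobase, had log2 fold changes of -0.09 (SE 0.09) and 0.03 (SE 0.16). The 10 upstream regulators, which include the kinases Atm and Atr and the deubiquitinase Usp7, had 7 positive values and a median of 0.13. Of all 14212 genes tested, 6798 had positive values. Hipk2, a kinase that phosphorylates p53, had a value of 0.40 (SE 0.19, edgeR adjusted p = 0.708) with KO 3 far above the rest, at 68.7, 83.9 and 126 CPM in KO 1, 2 and 3 against 67.1 to 76.6 in controls. Rchy1, another ubiquitin ligase of p53, had a value of -0.20 (SE 0.14). Of the 5 tested arrest targets Btg2, an antiproliferative cofactor, had a value of -0.10 (SE 0.13) and Pml, the organiser of nuclear bodies, of -0.03 (SE 0.11). Of the 5 DNA repair targets Pcna, the sliding clamp of replication, had a value of -0.22 (SE 0.12) and Rrm2b, a ribonucleotide reductase subunit, of 0.05 (SE 0.12).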

How the data were processed

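The file deposited by the authors holds raw counts of reads for each gene and library and the summed exon length. The submitters' processing notes name STAR 2.7.9, featureCounts 2.0.0 and the genome builds GRCm38.p6 and mm10. Neither the annotation release, the strand setting nor the handling of multi-mapping reads is given in the sources used here. Symbols were found for 55141 of 55401 identifiers.

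KO was compared with control by the quasi-likelihood test of edgeR 4.0.16 under R 4.3.3 (glmQLFit, glmQLFTest), with TMM factors, genotype as the only term, filterByExpr (minimum count 10, minimum total 15) and Benjamini-Hochberg adjustment over all 14212 genes at 0.05. Tests were two-sided. The test script was tested on simulated data. Intervals are 95%. Alternatives used RLE, no filter, a block on replicate number, 1 library left out at a time, DESeq2 1.42.0, limma-voom (limma 3.58.1) and acinar or ribosomal RNA covariates. The titles number male mice within each group, but no label says that each library came from a different animal. The p-values thus reflect spread among libraries, which may be technical, and the fit without the filter takes little account of it.

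The members and lists were chosen with earlier results of these data known. Named were the 10 members, listed genes with an unadjusted p under 0.05, the 2 genes of each pathway role with the highest level per kilobase, and the 5 nearest patterns to Cdkn1a and Plk3. Genes named for comparison with a member were added to these.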

Additional observations from a re-analysis of the deposited data

How the results depend on the processing

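The number of genes called over the whole table was 10, and it was 300 without the filter on low counts, 36 with the replicate block, 48 with DESeq2, 6 with limma-voom, 43 with the acinar covariate, 0 with the ribosomal RNA covariate (214 at an unadjusted p under 0.05) and from 2 to 6 with 1 library left out. Of the 10 p53 genes, 3 were called without the filter (Plk3, Cdkn1a and Trp53inp1, where 1.14% of genes were called), and 1, Plk3, with the replicate block (adjusted p = 0.0336), with DESeq2 and with the acinar covariate. Their paralog Gadd45b was called in the same 4 alternatives (adjusted p = 0.0286 with the replicate block). The p-values without the filter take little account of a gene's own spread among libraries (SE of Plk2 0.12, beside 0.32 in the main fit). None of the 10 was called with RLE, limma-voom, the ribosomal RNA covariate or any library left out. The cause was not tested. The ribosomal RNA covariate ran largely with genotype, so the fit with it cannot separate them well. Of the 42 other pathway genes 0 were called in every alternative run. Plk3, Cdkn1a, Ccng1, Gadd45a, Mdm2 and Trp53inp1 kept their direction in all 13 alternatives. Trp53 turned to 0.013 without control 3 and to 0.031 with the ribosomal RNA covariate. Plk2 turned to 0.24 without control 1 and 0.063 without KO 3 (range -0.44 to 0.24 with 1 library left out), and to 0.21 with the acinar and 0.11 with the ribosomal RNA covariate. Sesn1 turned to -0.14 with the ribosomal RNA covariate, and Zmat3 to -0.19 with it and to -0.021 without KO 3 (range -0.021 to 0.21 with 1 library left out). No label says that the replicate numbers pair animals, so they were not taken as pairs. Libraries sharing a number had deviations from their group means that correlated at 0.16, -0.16 and 0.14, and not every library correlated best with its own number. With 3 libraries per group these correlations cannot decide whether the libraries were paired. The intervals above show what this depth and 3 libraries per group could resolve.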

Other observations

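Immediate early genes, which respond within minutes to handling and growth signals and share inducers with Plk2, Plk3 and Gadd45b, were listed as well. All 13 were tested and 0 passed (edgeR adjusted p under 0.05, with 0 also by DESeq2 and limma-voom). Of all genes tested, edgeR called 0.0704% and DESeq2 0.338%. Among the 13, 9 values were positive and 4 negative, and the median log2 fold change was 0.14 beside -0.01 for all genes. Nr4a1, an orphan nuclear receptor, was the 1 gene of the 13 with an unadjusted p under 0.05, against 7.37% of all genes tested, at 8.82, 9.09 and 4.98 CPM in controls 1, 2 and 3 and 16.3, 9.23 and 9.51 in KO 1, 2 and 3 (log2 fold change 0.65, SE 0.28, edgeR adjusted p = 0.674). That value was 0.32 without KO 1 and 0.39 without control 3. Nr4a1 passed in the edgeR test without the filter on low counts (adjusted p = 0.00511), where 1.14% of all genes tested were called. In that fit its SE was 0.16, beside 0.28 in the main one, so the p-value takes little account of its own spread among libraries.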
